A study of Mus musculus with 4 samples.

Results

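In the lists of sequence variants deposited for 2 mouse cancer cell lines, 512 entries were single-base substitutions whose annotated effect was a position upstream or downstream of a gene. They were found by taking every entry with 1 reference base and 1 alternative base whose annotation begins with one of those terms. They were 512 of 5971 listed substitutions and of 11806 listed variants of any kind. MBT2 held 280 of them and LM8 held 232. Because 27 substitutions stood in both lists, there were 485 distinct ones. MBT2 is a bladder cancer line and LM8 is an osteosarcoma line, and the labels give C3H/HeN as the strain of both. Cells of each line were grown without treatment in different culture media, and poly(A) RNA was sequenced from 2 libraries per line, labelled 1 and 2. The 2 libraries of a line share 1 list, and no normal tissue was among the samples. The labels do not say that duplicates came from separate cultures, so the spread between libraries may be technical. The lists hold variants and no expression levels, so the labelled cell types could not be checked against their markers.

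Upstream of a gene means before the start of its transcript and downstream means after its end. DNA there holds promoters, enhancers, run-off transcripts past the polyadenylation site, and neighbouring genes. Poly(A) RNA is mostly spliced messenger RNA, so a substitution read there stands in RNA that the chosen transcript does not cover. Such RNA can come from a longer isoform, from a gene on the other strand, or from transcription that continues past the end. Adenosine deaminases acting on RNA (the ADAR enzymes) turn adenosine into inosine, which is read as guanosine, so an A-to-G change in RNA can be an edit as well as a DNA variant. Processed pseudogenes are DNA copies of spliced messenger RNA, and ribosomal RNA genes stand in repeated arrays, so reads can match more than 1 place in both.

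The sequence around a substitution is shown where the end of the named transcript could be found inside another transcript or promoter window and the annotated distance counted from it. This was possible for 41 of the 486 substitutions whose transcript is in GENCODE release M21, and the base there was the listed reference base in 39. In 35 the host also ran on the strand of the sequenced RNA. These 35 lay in 31 cases inside an annotated transcript and in 4 cases in a RefSeq promoter window of the build GRCm38.p6. The host was another transcript of the named gene in 25 of them and another gene in 10. A selection of 10, made after their values were seen, is shown to give the base in its setting: sites in Malat1, other sites above 20%, 1 site listed in both lines, 1 A-to-C site and 2 of the 4 promoter sites. Each is written 5′ to 3′ on the RNA strand, with the substituted base in capitals.
Malat1, A-to-G in MBT2: ctaccacaagcctcActcctgtgtagggg
Malat1, C-to-T in MBT2: gcatctttagaagaCagaaaaggtactta
Malat1, T-to-G in LM8: gctgtctccttattTaaataaagtcttgt
Ppan, G-to-C in MBT2: cagtgggaaaggggGcttgctgttaaact
Gm49759 near Pkm, A-to-G in MBT2: caacacctgcctatAtatggcagctcaca
Flna, A-to-G in LM8: cgtgtctcaggtctAaaggctttgaacag
Gm3226 near Il31ra, A-to-G in both lines: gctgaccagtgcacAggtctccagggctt
Sos1, A-to-C in MBT2: cctccccgttccccAccgacccctgctcc
Hnrnph1 promoter, G-to-C in LM8: cccacccccaccccGcagccccgcaatct
Agap3 promoter, T-to-C in LM8: tcccggtcccgttgTtgttgccgctggag

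Malat1 is a long nuclear non-coding RNA on chromosome 19 and lies on the minus strand. The A-to-G site at position 5850686 (GRCm39) was annotated 3706 bases upstream of a short Malat1 transcript, while its base lay inside a longer one. It was read with the alternative base in 54 of 210 reads of MBT2 library 1 and in 60 of 224 reads of library 2, or 26.3% in all. The C-to-T site at position 5851868 stood at 66 of 249 and 67 of 276 reads in the MBT2 libraries, or 25.3%. The T-to-G site at position 5848395 stood at 18 of 67 and 12 of 59 reads in the LM8 libraries, or 23.8%. A second LM8 site, A-to-G at position 5848247, was low and stood at 2 of 56 and 4 of 44 reads, or 6%. The MBT2 and LM8 sites in Malat1 were different positions.

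Ppan, a ribosome biogenesis factor, had a G-to-C site on chromosome 9 at position 20800150, annotated 1784 bases upstream and lying in a retained-intron transcript of Ppan. The alternative base filled 49 of 64 and 44 of 54 reads in the MBT2 libraries, 78.8% in all. The A-to-G site on chromosome 9 at position 59583694, 3452 bases downstream of Pkm, a glycolytic enzyme, lay in the unclassified transcript Gm49759 and stood at 25 of 89 and 28 of 84 MBT2 reads. The Flna gene encodes filamin A, an actin crosslinker whose messenger RNA is a known editing target. Its pair of adjacent A-to-G sites on chromosome X at positions 73270255 and 73270256 lay in a retained-intron transcript. In LM8 the first stood at 1 of 39 and 3 of 42 reads and the second at 5 of 39 and 12 of 42 reads. The sequence printed for Flna marks the second of the pair.

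The site near Il31ra, a cytokine receptor subunit, on chromosome 13 at position 112731237, lay in the processed pseudogene Gm3226 and was in both lists. It was read at 7 of 69 and 9 of 88 reads in MBT2, against 1 of 58 and 8 of 48 reads in LM8. Sos1 encodes a guanine nucleotide exchange factor of the Ras pathway. Its site on chromosome 17 at position 80787760, in a retained-intron transcript of Sos1, stood at 3 of 38 and 6 of 40 reads in the MBT2 libraries, 11.5% in all. The promoter sites printed above stood at 7.35% (Hnrnph1) and 18.2% (Agap3) in the summed LM8 reads. The Hnrnph1 site, next to a splicing regulator on chromosome 11 at position 50269114, lay 4 bases upstream and stood at 4 of 33 and 1 of 35 reads in LM8. The Agap3 site on chromosome 5 at position 24656960 lay 215 bases upstream and stood at 5 of 30 and 5 of 25 reads in LM8. For 1 further substitution, not among these 35, the bases around it could be read from the deposited deletions. Prpf39, a splicing factor, had a C-to-G site in MBT2 on chromosome 12 at position 65090486, at 3 of 21 and 2 of 29 reads, with the alternative base at a median of 1 base from the read end. It lay 2 bases before the end of a 103-base deletion in the same gene that both lists hold and annotate as a splice acceptor change. The last bases of that deletion, on the plus strand of GRCm39 at chr12:65090472-65090488, show the substituted base before the final dinucleotide.
Prpf39, C-to-G in MBT2: attgcatttttggtCag

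MBT2 carried more of these substitutions than LM8, 280 against 232, a ratio of 1.21 (exact binomial test, two-sided, p = 0.0377). The ratio was 1.16 and 1.14 with library 1 or library 2 of MBT2 left out, and it reached 1.27 with a library of LM8 left out. Leaving out a library only drops sites without an alternative read in the other library of that line. The direction of these shifts was therefore fixed, and they do not test the difference. As a share of all substitutions, the lines did not differ beyond counting error: 8.84% of 3169 in MBT2 (95% exact Clopper-Pearson interval 7.87 to 9.88) and 8.28% of 2802 in LM8 (7.29 to 9.36), with p = 0.459 in Fisher's exact test. Every test here counts variants of 1 list per line, so it compares the lists and not repeated cultures. Upstream positions were 160 and downstream positions 120 in MBT2, against 120 and 112 in LM8 (odds ratio 1.24, Fisher's exact test, p = 0.246). In MBT2, 230 genes were named and 195 of them once. In LM8, 174 genes were named and 139 of them once.

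Depth was lower at these positions than at other substitutions. The median was 59 reads in MBT2 and 65 in LM8, against 139 and 108.5 reads at the other substitutions of MBT2 and LM8. The medians were 28 and 31.5 reads in the MBT2 libraries, against 33 and 32 reads in the LM8 libraries. The shallowest had 14 reads over both libraries, and all 512 were used. Fractions are the reads with the alternative base over all reference and alternative reads of both libraries. Reads carry no molecular identifiers and may be copies of 1 molecule, so the intervals cover only counting error.

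Duplicate libraries were not told apart at any of these sites after adjustment. Fisher's exact test on the reads of the 2 libraries, adjusted by Benjamini-Hochberg over all listed sites of a line, called 0 of 280 in MBT2 and 0 of 232 in LM8, and 0% of the 6361 MBT2 and 5445 LM8 sites as a whole. At an unadjusted p under 0.05 it called 5 MBT2 substitutions (1.79%, against 3.76% of all MBT2 sites) and 8 LM8 substitutions (3.45%, against 3.89% of all LM8 sites). No alternative read was found at 16 sites in library 1 and 11 in library 2 of MBT2, against 11 and 12 sites in the libraries of LM8. Across sites, which share libraries and are not replicates, the Pearson correlation of the duplicate fractions was 0.979 over 280 MBT2 sites and 0.977 over 232 LM8 sites. The Spearman correlation was lower, 0.655 in MBT2 and 0.685 in LM8.

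Alternative fractions fell into a low group and a high group with little between. In MBT2, 146 substitutions stood below 0.1, 59 from 0.1 to 0.2, 18 from 0.2 to 0.6, and 57 at 0.6 or more. In LM8, 120 stood below 0.1, 42 from 0.1 to 0.2, 19 from 0.2 to 0.6, and 51 at 0.6 or more. Between 0.4 and 0.6 lay 0 substitutions in MBT2 and 1 in LM8. The caller's germline filter had been applied before deposit, per the file headers. The high group was shallow: 44 of 57 MBT2 and 32 of 51 LM8 substitutions at 0.6 or more had fewer than 40 reads, with median depths of 25 and 28 reads.

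In LM8 these substitutions more often reached a fraction of 0.2 than the other substitutions of the list, at 30.2% of 232 (24.3 to 36.5) against 11.9% of 2570 (10.7 to 13.3). The odds ratio was 3.19 (Fisher's exact test, Benjamini-Hochberg over both lines, adjusted p = 5.7e-12). In MBT2 the shares were 26.8% of 280 (21.7 to 32.4) against 22.7% of 2889 (21.2 to 24.3), an odds ratio of 1.24 with exact adjusted p = 0.137. That MBT2 value turned round to 0.734 (exact adjusted p = 0.138) where at least 40 reads were asked for. With the alternative base at least 5 bases from the read end it turned round and passed the threshold, at 0.567 (exact adjusted p = 2.63e-04). It passed in the upward direction without library 1 of MBT2 (1.35, exact adjusted p = 0.0389) and at a limit of 0.1 (1.86, adjusted p = 1.29e-06). Between the lines, the share of 26.8% in MBT2 and 30.2% in LM8 did not differ beyond counting error (odds ratio 0.847, exact p = 0.431). Without library 1 of LM8 the odds ratio was 0.666 (exact p = 0.0403), and without library 1 of MBT2 it was 1.01.

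**Figure D1:**
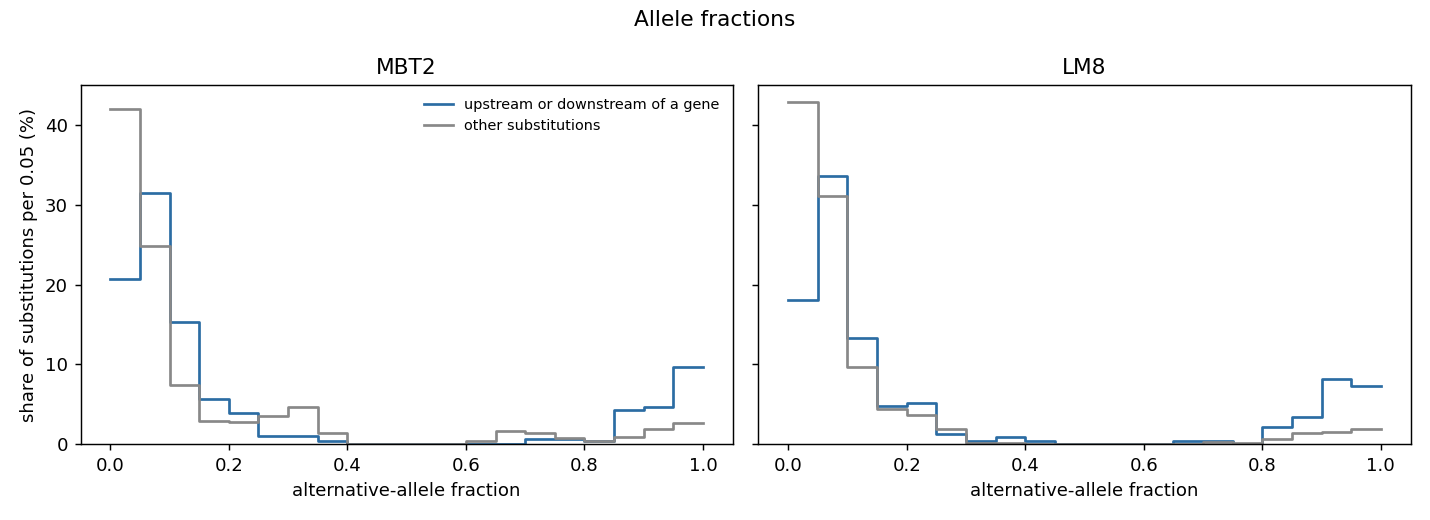
Share of substitutions in steps of 0.05 of the alternative-allele fraction (x axis, reads with the alternative base over all reads), with 280 MBT2 and 232 LM8 substitutions upstream or downstream of genes in blue and all other substitutions in grey. Both curves have a peak below 0.1 and rise again near 1, and in the last step the blue curve stands at 9.64% in MBT2 and 7.33% in LM8 and the grey curve at 2.7% in MBT2 and 1.95% in LM8. The grey MBT2 curve also has a peak of 4.71% between 0.3 and 0.35.

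Among the high fractions with at least 40 reads, several lay near genes of known function. In MBT2, the site 661 bases upstream of Hexa, a lysosomal hexosaminidase subunit, had the alternative base in 23 of 25 and 20 of 22 reads, 91.5% in all. The site 126 bases upstream of Rdx, which encodes the membrane to actin linker radixin, stood at 18 of 20 and 22 of 25 reads. The site 569 bases downstream of Tacr2, a tachykinin receptor, stood at 20 of 23 and 17 of 20 reads. All 3 were on the RNA strand of the named gene. The alternative base lay at a median of 1 base from the read end at the Hexa site, against 17 at Rdx and 24 at Tacr2. In each, both MBT2 libraries stood at 85% or more.

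In LM8, the site 960 bases downstream of Set, a histone chaperone, stood at 21 of 23 and 28 of 29 reads, 94.2% in all. The site 4272 bases downstream of Pfn4, a member of the profilin family, stood at 28 of 36 and 33 of 35 reads. A site 1610 bases downstream of Poteg stood at 24 of 27 and 25 of 27 reads. At the Set site the median distance of the alternative base from the read end was 3 bases, against 15 at Pfn4 and 16 at Poteg. Upstream of the non-coding gene Gm37665, MBT2 and LM8 each had high fractions but at different positions: 87.3% of 55 reads at 1 site in MBT2, against 90.4% of 52 and 85% of 40 reads at a pair of sites in LM8.

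Rn18s-rs5, an 18S ribosomal RNA gene on chromosome 17, was the gene named most often in LM8, with 9 substitutions, and in MBT2 it had 5. Its strand is not in the annotation used here, so its sites are left out of the counts of RNA strand relations. In LM8 its upstream sites lay at lower positions than its downstream sites, which places it on the plus strand. The RNA was on the plus strand at all 9. In LM8, 5 of the 9 stood between 28.9% and 41.3% of 647 to 1244 reads. Of these, the site 2208 bases upstream had 259 of 586 and 218 of 570 reads. The site 42 bases downstream had 229 of 613 and 248 of 630 reads. In MBT2, 3 of the 5 stood between 1.75% and 3.97% of 1153 to 1713 reads. The 2 others were in both lists and are given with the shared sites. Sites named for the pseudogene AY036118, on the minus strand of chromosome 17, stayed in the counts of RNA strand relations. They were 3 in MBT2 and 1 in LM8, all downstream and in RNA opposite to the named gene. The LM8 one, at position 40157918, lay between the Rn18s-rs5 sites at 40156896 (upstream) and 40159124 (downstream). How much ribosomal RNA the libraries held cannot be told from a list of variants.

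Other genes gathered several substitutions. Tm4sf19, a tetraspanin-like membrane protein gene, had 5 MBT2 substitutions, all downstream by 514 to 2590 bases and all on the strand of Tm4sf19. They stood between 5.26% and 12.1% in summed reads. In library 1 of MBT2, 2 of the 5 had no alternative read, at 0 of 18 and 0 of 16, against 3 of 14 and 4 of 23 reads in library 2. An allele resource given to the caller held 3 of the 5. Snx5, a sorting nexin of the retromer pathway, had 4 MBT2 substitutions within 445 bases. All 4 were A-to-G on the RNA strand, which was that of Snx5. Their fractions were 22.1% of 95 reads, 7.07% of 99, 8.46% of 130 and 7.77% of 103. In LM8, 5 substitutions upstream of Gm37665 and 4 upstream of Gm47652 were all in RNA opposite to the named gene. They stood between 1.69% and 90.4% at Gm37665 and between 2.34% and 21.8% at Gm47652.

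Upstream of Vars, a valyl-tRNA synthetase gene, 3 MBT2 substitutions lay in RNA of the opposite strand. The deepest was A-to-G at 241 of 619 and 230 of 569 reads, 39.6% in all, and was not in the LM8 list. The nearby G-to-A site was in both lists, at 25 of 389 and 22 of 406 reads in MBT2, against 8 of 149 and 5 of 100 reads in LM8. Upstream of Chrac1, a chromatin accessibility complex subunit, 3 LM8 substitutions between 4.46% and 9.38% were again on the opposite strand.

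Close neighbours were more common at these positions than elsewhere. Another listed substitution lay within 100 bases of 17.1% of the MBT2 substitutions (12.9 to 22.1), against 8.07% of other MBT2 substitutions (7.1 to 9.12), an odds ratio of 2.36 (Fisher's exact test, adjusted p = 4.18e-06). In LM8 the shares were 19.4% (14.5 to 25.1) against 8.44% (7.4 to 9.59), an odds ratio of 2.61 (exact adjusted p = 1.5e-06). With 1 substitution per gene and side, neither passed the threshold: 1.60 (exact adjusted p = 0.141) in MBT2 and 1.48 (adjusted p = 0.153) in LM8.

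The strand of the sequenced RNA was read from the orientation of the read pairs, since the libraries were made with a directional kit. Coding substitutions checked it: the strand was that of the gene in 1076 of 1081 in MBT2 and 950 of 953 in LM8. Where both strands were known, upstream substitutions lay in RNA opposite to the named gene in 46 of 151 cases (30.5%) in MBT2, against 24 of 113 downstream ones (21.2%). The odds ratio was 1.62 (Fisher's exact test, adjusted p = 0.121). In LM8 the counts were 49 of 110 upstream (44.5%) against 30 of 103 downstream (29.1%), an odds ratio of 1.95 (exact adjusted p = 0.0467). This comparison of RNA strands was added after the data were seen. The LM8 call was lost without library 1 of LM8 (2.00, exact adjusted p = 0.0549) and with a strand limit of 99% of reads (1.87, adjusted p = 0.0875). Next to protein-coding transcripts, RNA of the opposite strand was read at 50 of 121 MBT2 substitutions and at 44 of 83 LM8 substitutions.

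**Figure D2:**
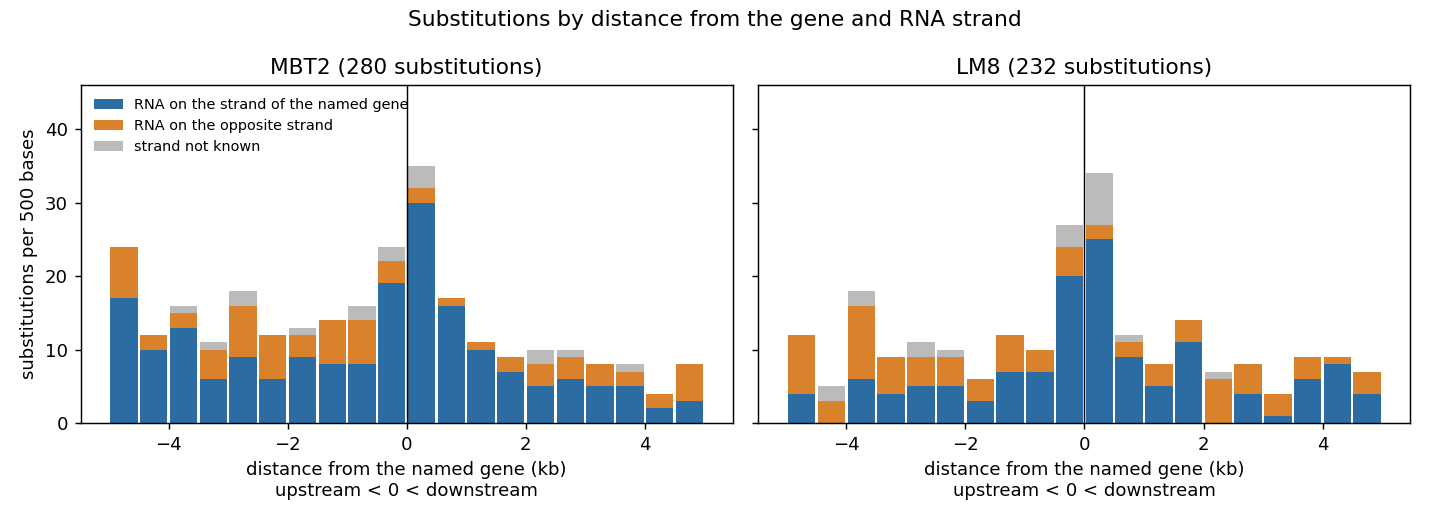
Substitutions per 500 bases of distance from the named gene (x axis in kb, upstream to the left of 0 and downstream to the right), stacked by whether the sequenced RNA ran on the strand of the gene, on the opposite strand, or was not known. In MBT2, 35 of 120 downstream substitutions lay within 500 bases, and 30 of those 35 were on the strand of the gene.

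Distances ran from 1 base to 5000 bases. The median distance was 2611.5 bases upstream and 1234.5 bases downstream in MBT2, against 2317 and 1581.5 bases in LM8. Within 1000 bases lay 25% of upstream and 43.3% of downstream substitutions in MBT2 (odds ratio 0.436, Fisher's exact test, Benjamini-Hochberg over 4 comparisons, adjusted p = 0.00544). In LM8 the shares were 30.8% and 41.1% (odds ratio 0.640, exact adjusted p = 0.263). The MBT2 call was lost without ribosomal RNA, pseudogene and mitochondrial neighbours, where the odds ratio was 0.905, and with at least 40 reads, where it was 0.522.

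Pseudogene ends held many of the nearest positions. Of downstream substitutions next to a pseudogene, 12 of 35 MBT2 ones (34.3%) and 11 of 32 LM8 ones (34.4%) lay within 100 bases of its annotated end. Next to other genes this was true of 5 of 85 MBT2 (5.88%) and 6 of 80 LM8 substitutions (7.5%). The odds ratios were 8.35 in MBT2 (Fisher's exact test, adjusted p = 3.22e-04) and 6.46 in LM8 (adjusted p = 8.33e-04). All 12 and all 11 were in RNA of the pseudogene's own strand. Among substitutions private to 1 line neither passed the threshold, at 4.38 (exact adjusted p = 0.0531) and 3.10 (adjusted p = 0.126). This comparison was added after the data were seen. Among the pseudogenes were the ribosomal protein copies Rps16-ps2, Rpl31-ps8 and, in MBT2, Rpl3-ps1. Gm14586 carried a G-to-A change 37 bases past its end in both lines.

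The bases changed were compared in 6 classes that pool both strands. T-to-C with A-to-G made up 46.1% of the MBT2 substitutions and 42.7% of the LM8 ones, and C-to-T with G-to-A made up 26.8% and 28.4%. No class differed between MBT2 and LM8 in Fisher's exact test adjusted over 6 classes, and the lowest adjusted p was 0.353, for C-to-A with G-to-T (9.29% in MBT2 against 4.74% in LM8, odds ratio 2.06, unadjusted p = 0.0588). No class differed from the other substitutions of the same list. The lowest adjusted p there was 0.0815, for C-to-T in LM8 (28.4% against 37.4%). A-to-G pairs made up 41.9% of upstream against 51.7% of downstream substitutions in MBT2 (exact adjusted p = 0.232), and 44.2% against 41.1% in LM8 (adjusted p = 0.691).

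Read on the RNA strand, 12 changes could be told apart at 270 MBT2 and 230 LM8 substitutions. These tests were added after the data were seen and adjusted over 24 comparisons with the other substitutions. A-to-C was commoner than elsewhere in both lines: 13 of 270 (4.81%) against 29 of 2866 (1.01%) in MBT2, an odds ratio of 4.95 (exact adjusted p = 6.71e-04), and 14 of 230 (6.09%) against 41 of 2553 (1.61%) in LM8, an odds ratio of 3.97 (adjusted p = 0.00113). Among private substitutions the adjusted p was 0.0592 in both lines. Pseudogenes were the neighbours of 6 of the 13 and 5 of the 14. Over all substitutions upstream or downstream of genes they were the neighbours of 16.8% in MBT2 and 22.8% in LM8. The A-to-C sites 58 bases past Rps16-ps2 and 46 bases past Gm9843 stood in both lists.

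A-to-G made up 78 of 270 (28.9%) against 614 of 2866 (21.4%) in MBT2, an odds ratio of 1.49 (exact adjusted p = 0.0363). In LM8 it made up 53 of 230 (23%) against 434 of 2553 (17%), an odds ratio of 1.46 (exact adjusted p = 0.0724). The MBT2 call was lost without library 2 of MBT2 (1.42, exact adjusted p = 0.0724), with at least 40 reads (1.47, adjusted p = 0.109) and with 1 substitution per gene and side (1.40, adjusted p = 0.118). On the strand of the named gene, A-to-G was 50.7% of all A-to-G plus T-to-C changes upstream against 59% downstream in MBT2, and 63.3% against 72.1% in LM8 (exact adjusted p = 0.384 in each line). In LM8, A-to-T was 6.96% against 3.09% and C-to-A was 4.35% against 1.61% (odds ratios 2.34 and 2.78, exact adjusted p = 0.0363 each). Neither was among the results rerun under the alternatives. Of the 16 A-to-T sites, 6 lay under 5 bases from the read end and 5 were next to pseudogenes. Of the 10 C-to-A sites, 5 were next to pseudogenes. Over all LM8 substitutions upstream or downstream of genes, 26.7% lay under 5 bases from the read end and 22.8% were next to pseudogenes.

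G-to-T on the RNA strand was the 1 change of 12 that passed the test between the lines, with 15 of 270 MBT2 and 1 of 230 LM8 substitutions (odds ratio 13.5, Fisher's exact test, Benjamini-Hochberg over 12 changes, adjusted p = 0.0154). The other substitutions of the lists stood apart in the same direction, at 159 of 2866 (5.55%) in MBT2 and 35 of 2553 (1.37%) in LM8, and neither line's share here passed the test against them (exact adjusted p = 1 in MBT2 and 0.508 in LM8). Of the 15, 10 stood at 0.2 or more, and in none was the alternative base under 5 bases from the read end. The 159 other G-to-T substitutions of MBT2 were alike in this. Of them, 117 stood at 0.2 or more, and 4 lay under 5 bases from the read end. The 15 included the Rdx and Tacr2 sites above. Both sites upstream of Psat1, a serine synthesis enzyme, were G-to-T in MBT2. The nearer stood at 41 of 51 and 27 of 41 reads and the farther at 7 of 36 and 9 of 36 reads. Downstream of the pseudogene Gm6197 a G-to-T site stood at 148 of 464 and 163 of 473 reads. The call was lost with at least 40 reads (10.3, exact adjusted p = 0.0793), with 1 substitution per gene and side (9.04, adjusted p = 0.179) and without ribosomal RNA, pseudogene and mitochondrial neighbours (7.75, adjusted p = 0.334).

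**Figure D3:**
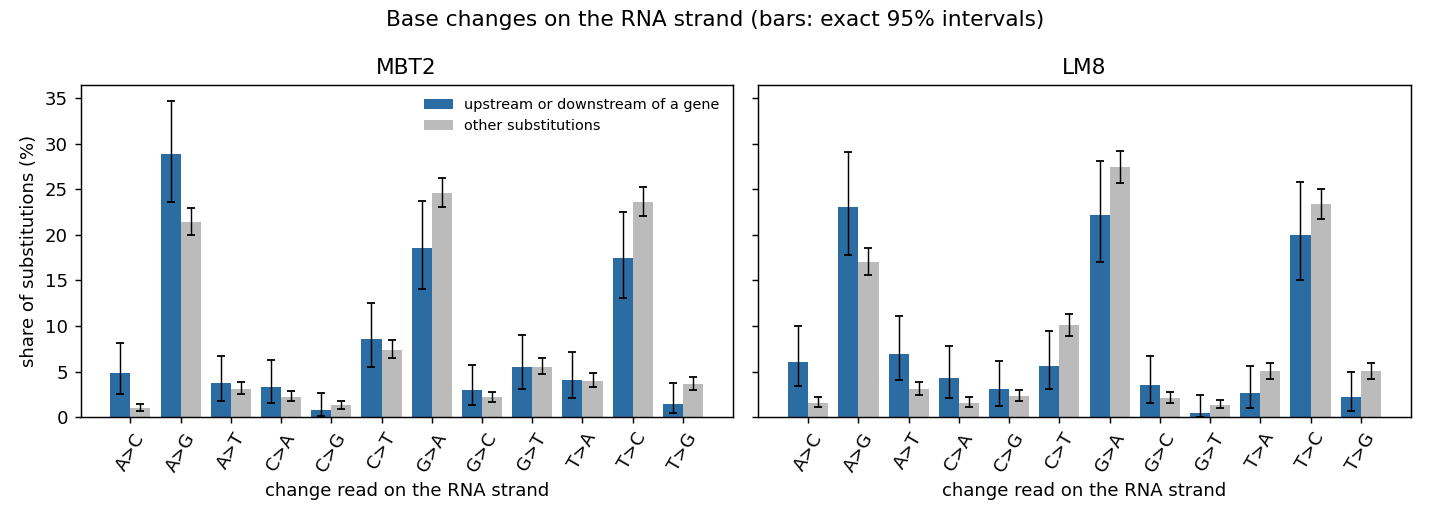
Share of each of 12 base changes on the RNA strand (y axis, percent, with exact 95% intervals) for substitutions upstream or downstream of genes in blue and other substitutions in grey, per line. A-to-C stands higher in blue in both lines, and G-to-T is 5.56% of the blue MBT2 substitutions against 0.435% of the LM8 ones.

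The alternative base lay farther from the ends of reads than at other substitutions. The median distance over reads was at least 5 bases at 76.1% of the MBT2 substitutions (70.6 to 80.9), against 49.3% of the others (47.5 to 51.1), an odds ratio of 3.27 (Fisher's exact test, adjusted p = 4.54e-18). In LM8 it was 73.3% (67.1 to 78.9) against 49% (47.1 to 51), an odds ratio of 2.85 (exact adjusted p = 7.48e-13). This comparison too was added after the data were seen. The changes differed in this. Of T-to-C substitutions on the RNA strand, 30 of 47 in MBT2 and 21 of 46 in LM8 lay under 5 bases from the read end, while for A-to-G it was 6 of 78 and 11 of 53. Of the G-to-A substitutions, 21 of 50 in MBT2 and 17 of 51 in LM8 lay there. Among the other substitutions of the lists, T-to-C lay there at 572 of 676 in MBT2 and 465 of 596 in LM8. For A-to-G it was 213 of 614 and 192 of 434, and for G-to-A 439 of 704 and 420 of 700.

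**Figure D4:**
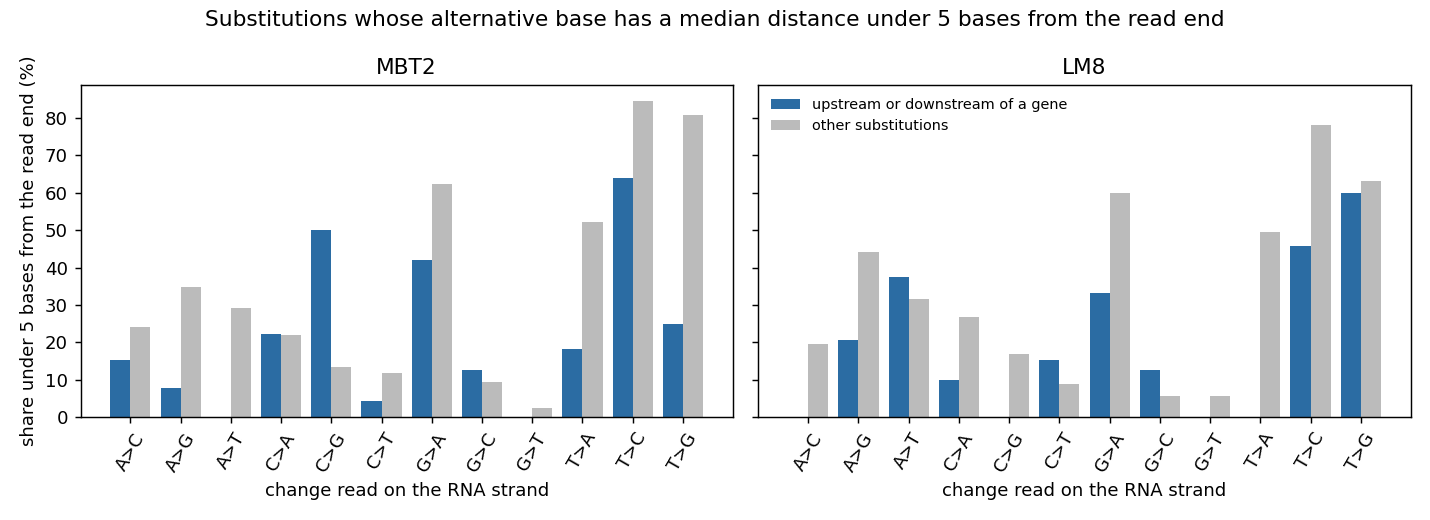
Share of substitutions whose alternative base had a median distance under 5 bases from the read end (y axis, percent), for each of the 12 changes on the RNA strand and each line, with substitutions upstream or downstream of genes in blue and other substitutions in grey. In blue, T-to-C has 30 of 47 MBT2 and 21 of 46 LM8 substitutions there, and G-to-T has 0 of 15 in MBT2. In grey, T-to-C has 572 of 676 MBT2 and 465 of 596 LM8 substitutions there, and G-to-T has 4 of 159 in MBT2.

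Of the substitutions, 27 were in both lists, which is 9.64% of those in MBT2 and 11.6% of those in LM8. Other substitutions were in both lists at 7.03% in MBT2 and 7.9% in LM8, and neither difference passed the threshold (odds ratios 1.41 and 1.54, Fisher's exact test, adjusted p = 0.116 each). With at least 40 reads both did, at 1.79 and 1.78 (exact adjusted p = 0.0183 each). Without ribosomal RNA, pseudogene and mitochondrial neighbours the MBT2 odds ratio was 0.932. That setting took such neighbours out of these substitutions only, and the other substitutions kept theirs. Of the 27, 10 were next to pseudogenes and 16 were downstream. Over all substitutions upstream or downstream of genes, 16.8% in MBT2 and 22.8% in LM8 were next to pseudogenes. Downstream were 120 of 280 in MBT2 and 112 of 232 in LM8.

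The fractions of shared sites lay close together in both lines. Of the 27, 5 stood at 60% or more in both lines and 22 below 40% in both, between 2.34% and 24.7%. The median absolute difference between MBT2 and LM8 was 2.65 percentage points and the largest was 9.86. Fisher's exact test on summed reads, adjusted over 1261 shared sites of any kind, called 1 of the 27 and 7.3% of all shared sites. The called site was 451 bases downstream of Rn18s-rs5, at 228 of 287 and 252 of 310 reads in MBT2, against 254 of 350 and 269 of 377 reads in LM8, or 80.4% against 71.9% (exact adjusted p = 0.0076). Both MBT2 libraries were above both LM8 libraries there. The call was lost without library 2 of MBT2 and without library 2 of LM8. The other shared Rn18s-rs5 site, 348 bases upstream, stood at 22% in MBT2 and 24.7% in LM8 (exact adjusted p = 0.641).

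The other shared high fractions were near Fat2, an atypical cadherin, at 88% of 25 reads in MBT2 and 84.2% of 38 in LM8, Rnh1, a ribonuclease inhibitor, at 88.4% and 85.4%, Gm29686 at 90% and 91.3%, and Gm14586 at 72.9% and 68.6%. The A-to-G site upstream of Gm10401 was read at 17.4% in MBT2 and 22.1% in LM8. The A-to-G site downstream of Eef1g, a translation elongation factor subunit, was read at 9.21% and 11.1%. The pair of sites 46 and 44 bases past Gm9843 stood at 6.25% and 21% in MBT2, against 8.9% and 18.4% in LM8.

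**Figure D5:**
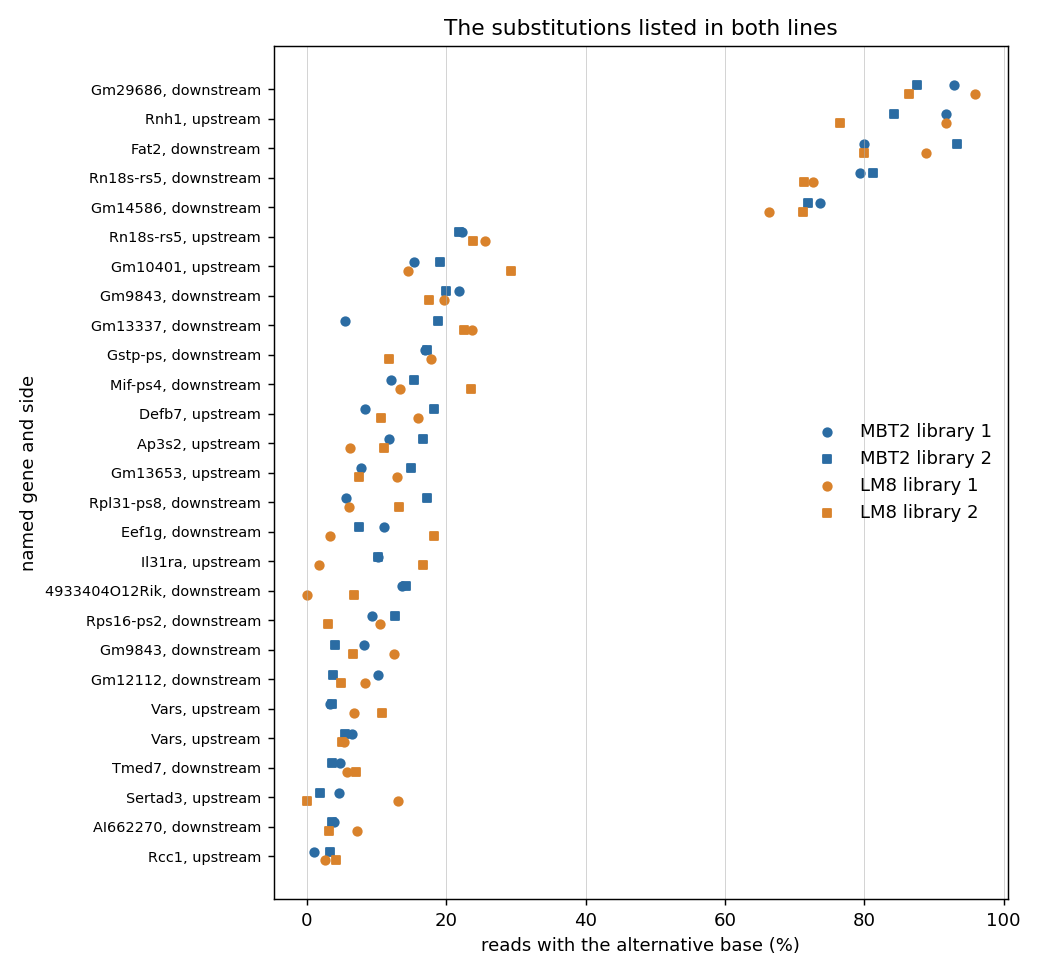
Percent of reads with the alternative base (x axis) at the 27 substitutions listed in both lines, 1 row each with the named gene and side, in MBT2 libraries (blue) and LM8 libraries (orange), where circles are library 1 and squares library 2. In all, 5 rows lie at 60% or more and the other 22 below 40% in both lines' summed reads, and at the downstream Rn18s-rs5 site both MBT2 points lie right of both LM8 points.

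An allele resource given to the caller held 25 of the MBT2 substitutions (8.93%) and 97 of the other MBT2 substitutions (3.36%), an odds ratio of 2.82 (Fisher's exact test, adjusted p = 9.82e-05). In LM8 it held 10 (4.31%) and 94 (3.66%), an odds ratio of 1.19 (exact adjusted p = 0.586). Zelen's exact test of equal odds ratios in both lines had adjusted p = 0.110. The 25 MBT2 sites had a median fraction of 12.1%, and 9 of them stood at 0.6 or more, the Hexa site among them.

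The gene lists examined held few of the named genes. Of 36 tumour driver genes, 31 chromatin regulators and 3 cytidine deaminases, none was named by any of these substitutions in either line. Other substitutions lay in 13 of the 36 drivers and 14 of the 31 chromatin regulators in MBT2, against 11 and 12 of them in LM8. Of 28 repair genes, Xrcc1, a scaffold of single-strand break repair, was named once, in MBT2, while other substitutions lay in 6 of the 28 in MBT2 and 8 in LM8. The Xrcc1 site lay 4957 bases downstream, in RNA of the opposite strand, at 12 of 13 reads in each MBT2 library, with the alternative base at a median of 1 base from the read end. Of 20 editing targets and enzymes, Flna was named, in LM8, while other substitutions lay in 6 of the 20 in MBT2 and 7 in LM8. Of 12 urothelium, 9 osteoblast, 4 leukocyte and 2 endothelium marker genes, none was named in either line, and other substitutions lay in 1 of them, an osteoblast gene in LM8. With 230 genes named in MBT2 and 174 in LM8, most of them once, absence from a list says little about the genes in it.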

How the data were processed

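RNA variants of 2 untreated lines were listed from 2 poly(A) libraries each, read as pairs of 75 bases, per the labels' protocols. The deposited tables hold reads per allele and library for 1 joint list per line. Calls came from Mutect 2.2 without a normal sample, filtered and selected with GATK 4.1.5.0, per the file headers. The submitters' processing notes name GATK 4.3.0, STAR 2.7.9a, cutadapt 1.9.1, bcl2fastq 2.17.1.14 and GRCm39. SnpEff 5.1d with database 105 gave 1 effect per variant, per the file headers, so a position can lie inside another transcript. The treatment of spliced reads before calling is not stated in any source used here.

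From these tables, fractions were computed from reads summed over libraries. The strand of the RNA was called where at least 90% of oriented reads pointed one way. Gene strands and sequences came from GENCODE release M21 and RefSeq (GRCm38.p6), whose coordinates were not used. Sequences were placed by searching the 40-base end of the named transcript and counting the distance from it. The lists were compared with two-sided Fisher's exact tests, Benjamini-Hochberg adjustment within a family, a threshold of 0.05 and exact 95% intervals. Differences of odds ratios between lines used Zelen's exact test. The tests were tried on simulated data.

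The members, gene lists and comparisons were chosen with earlier results of these data known. Named sites came from the 10 genes per line with most members, the 10 highest fractions with at least 40 reads and the 5 deepest. Added to these were up to 15 shared, up to 5 C-to-A, list genes and the densest window of 300 bases. Not all sites so selected are described. Left out were, among others, the deepest LM8 site, upstream of mt-Tl1 (11.8% of 3131 reads). The LM8 sites upstream of 5S_rRNA on chromosome 6 (86%, 90.2% and 88.3%) were also left out. The printed sequences and other names were chosen after their values were seen. Alternatives were each library left out, at least 40 reads, private variants, 1 per gene and side, and other limits. Comparisons on the RNA strand, pseudogene ends, read-end distance and multi-copy neighbours were added after seeing the data. Multi-copy neighbours were removed from members only. Python 3.11.15, scipy 1.17.1 and statsmodels 0.14.6 were used.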

Additional observations from a re-analysis of the deposited data

Results flagged for a closer look

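The share of substitutions at a fraction of 0.2 or more, compared with the other substitutions of the same list, differed between the lines. The odds ratio was 1.24 in MBT2 and 3.19 in LM8. Their ratio was 0.39 (95% interval 0.258 to 0.59, Zelen's exact test of equal odds ratios, Benjamini-Hochberg over 6 such contrasts, adjusted p = 7.44e-05). The shares upstream or downstream of genes were 26.8% in MBT2 and 30.2% in LM8, and those of the other substitutions were 22.7% in MBT2 and 11.9% in LM8. The other substitutions thus stood farther apart between the lines than these did. The ratio was between 0.388 and 0.43 with any 1 library left out, 0.256 with at least 40 reads and 0.29 with the alternative base at least 5 bases from the read end. It was 0.702 (exact p = 0.0608, not adjusted) at a fraction limit of 0.1.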

How the results depend on the processing

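Over 55 results and 515 alternative values, 442 counted as kept, and the others follow as odds ratios unless stated. Kept means the same direction and side of the threshold or, for counts of called sites, a count within a set factor. Of the changes on the RNA strand, only A-to-C and A-to-G against other substitutions, and A-to-G and G-to-T between lines, were among the 55. At least 40 reads gave 1.16 for the MBT2 to LM8 ratio (lost), 0.522 for distance in MBT2 (lost), 1.47 for A-to-G in MBT2 (lost), 10.3 for G-to-T (lost), and 1.79 and 1.78 for sites in both lists (gained). It turned round the high fractions of MBT2 (0.734), distance downstream between lines (0.93), the strand of A-to-G in MBT2 (1.03), the allele resource in LM8 (0.822), and the classes C-to-T between lines (1.02), C-to-G in MBT2 (0.949) and T-to-C in MBT2 (0.964) and LM8 (0.982). Private variants lost the LM8 strand result (1.75), A-to-C (3.62 in MBT2, 2.99 in LM8), A-to-G in MBT2 (1.48) and pseudogene ends (4.38 in MBT2, 3.10 in LM8). With 1 per gene and side, close neighbours (1.60 in MBT2, 1.48 in LM8), the LM8 strand result (1.88), A-to-G in MBT2 (1.40) and G-to-T (9.04) were lost, and the share of substitutions was gained (1.23). It turned round T-to-C in MBT2 (0.95) and LM8 (0.946), high fractions between lines (1.06) and the strand of A-to-G in LM8 (1.11).

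A fraction limit of 0.1 gained the MBT2 high fractions (1.86) and lost the difference between lines (0.702). Among fractions of at least 0.1, T-to-C (0.934) and T-to-G (1.52) turned round between lines, and distance limits of 500 and 2000 bases turned round the downstream comparison (0.945 and 0.971). An alternative base at least 5 bases from the read end gained C-to-T in LM8 (0.551) and the MBT2 strand result (2.42), lost A-to-G in MBT2 (1.38) and turned round the MBT2 high fractions (0.567, exact adjusted p = 2.63e-04). It also turned round C-to-A (0.747) and C-to-G (0.654) in MBT2, and T-to-A (0.987) and the allele resource (0.871) in LM8. Multi-copy neighbours were taken out of these substitutions only, and the other substitutions compared with them kept theirs. Without multi-copy neighbours, distance in MBT2 (0.905), the LM8 strand result (1.71), A-to-C in MBT2 (3.23) and G-to-T (7.75) were lost. C-to-T (0.589) and A-to-G (1.86) in LM8 were gained. Their removal turned round T-to-G in MBT2 (0.845), A-to-G pairs in LM8 (0.779), distance in LM8 (1.24) and downstream (0.976), and shared sites in MBT2 (0.932). A strand limit of 99% lost the LM8 strand result (1.87). The cause of these changes was not tested.

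Leaving out 1 library at a time gave 1.14 to 1.27 for the MBT2 to LM8 ratio, 0.993 to 1.22 for C-to-G in MBT2, 0.666 to 1.01 for high fractions between lines and 1.24 to 1.35 for those of MBT2. It gave 1.42 to 1.55 for A-to-G in MBT2 and 1.95 to 2.00 for the LM8 strand result. Called shared sites numbered 92, of which 1 was upstream or downstream of a gene, against 55 to 73 and 0 to 1 with a library left out. A logistic model over the 4 libraries called 0 of either without a block and 0 of either with the replicate number as a block. The labels do not say that numbers pair libraries. With 4 libraries that model has so few degrees of freedom that it could hardly pass after adjustment over 1261 sites. Its 0 calls therefore say nothing about the 92. With 1 per gene and side or without multi-copy neighbours, 0 of these substitutions was called. No substitution of lower depth than 14 reads was listed, and a median of 59 and 65 reads leaves low fractions resting on few reads.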
